A study of Homo sapiens with 9 samples.

Results

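The OAS genes OAS1, OAS2, OAS3 and OASL encode the 2′-5′-oligoadenylate synthetase family. They were selected by gene symbol from the gene-level tables and, with their transcripts, from the transcript-level tables, and make up 4 of the 27111 genes and 11 of the 58352 transcripts listed. All 4 genes and 9 of the 11 transcripts passed the filter on low counts. The series asked how the splice forms of NF-YA, the subunit of the CCAAT-binding factor NF-Y that its gene NFYA encodes, alter prostate cancer cells. PC3, a human cell line established from a bone metastasis of prostate cancer, was infected with lentivirus carrying no insert (Empty) or the murine coding sequence of the long (NF-YAl) or the short (NF-YAs) form, and was selected with puromycin. Each of the 3 lines was grown as multicellular tumor spheroids (MTSs) in medium with Matrigel, a matrix of mouse origin, and spheroids were pooled for each of its 3 libraries of total RNA. The virus, the puromycin selection and the Matrigel were thus common to all 3 groups, and each line was a selected pool that kept its endogenous NF-YA. Libraries carry the replicate letters A, B and C, except that the third of NF-YAl is D. The p-values measure the spread among the 3 libraries of a line, and the sources used here describe no repeat transduction of a line.

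Cells make OAS proteins at low levels until interferon induces their genes. OAS1, OAS2 and OAS3 bind double-stranded RNA and link ATP into 2′-5′-oligoadenylates (2-5A), a messenger that leads to the cutting of RNA of virus and host. OASL resembles them but has lost the catalytic activity, carries ubiquitin-like repeats at its C-terminal end and acts with the RNA sensor RIG-I (gene DDX58).

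OAS1, OAS3 and OAS2 lie side by side on the plus strand of chromosome 12. In the GENCODE annotation of GRCh37, the build on which the reads were counted, OAS1 spans 113343661 to 113371024, OAS3 spans 113375856 to 113414265 and OAS2 spans 113416200 to 113449528. The 3 genes fill 105.9 kb, with gaps of 4.8 kb and 1.9 kb between neighbours. OASL lies 8.01 Mb away on the minus strand, from 121455566 to 121477049. A long noncoding RNA gene on the minus strand, ENSG00000257452, overlaps all 3 genes of the cluster in the annotation, and whether strand was used in counting is not stated in the sources used here.

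The sequences before the starts of OAS1 and OAS3 are shown because interferon-regulated promoters are known for paired GAAA blocks and NF-Y for CCAAT boxes. They are RefSeq sequences of GRCh38.p14 on the plus strand of chromosome 12, from 250 bases before to 50 bases after the annotated start, at chr12:112906712-112907011 for OAS1 and chr12:112938224-112938523 for OAS3. Capitals mark each match to GAAANNGAAA or GAAANGAAA, where N is any base, on either strand.
OAS1: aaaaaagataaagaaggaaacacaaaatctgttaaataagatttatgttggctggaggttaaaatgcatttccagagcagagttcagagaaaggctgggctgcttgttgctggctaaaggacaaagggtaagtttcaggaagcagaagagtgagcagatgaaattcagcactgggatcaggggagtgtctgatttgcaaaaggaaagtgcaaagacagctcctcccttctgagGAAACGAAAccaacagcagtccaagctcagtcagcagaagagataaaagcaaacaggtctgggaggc
OAS3: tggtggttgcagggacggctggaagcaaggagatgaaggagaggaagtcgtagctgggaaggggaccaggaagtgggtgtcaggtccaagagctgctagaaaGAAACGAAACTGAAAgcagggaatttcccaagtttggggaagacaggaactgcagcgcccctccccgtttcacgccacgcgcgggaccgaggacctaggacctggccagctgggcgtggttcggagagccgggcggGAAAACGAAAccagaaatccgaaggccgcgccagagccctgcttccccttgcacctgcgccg
OAS1 held 1 match to GAAANGAAA, which began 17 bases before the start. OAS3 held GAAANNGAAA 12 and 143 bases before the start, and the second of these overlapped a GAAANGAAA that began 148 bases before it. CCAAT was on neither strand of either window. Of 35116 RefSeq promoters of the same length, 3.57% held GAAANNGAAA, 3.12% held GAAANGAAA and 34.6% held CCAAT. These matches describe the letters of the windows only. Promoters of OAS2 and OASL were not analysed here.

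Gene-level counts cannot tell the NF-YAl label from the NF-YAs label, so only overexpression was checked, on NFYA. Its level was 89.2 to 96.7 CPM (counts scaled to library size by TMM) in Empty, 287 to 383 CPM in NF-YAl and 254 to 264 CPM in NF-YAs, and the murine and human sequences cannot be told apart in these counts. The libraries held 18076979 to 27163976 counts on 20116 to 20756 genes. Over all tested genes, replicate D of NF-YAl scored -47.5 on the third principal component, where its companions A and B scored 30.9 and 2.06. The epithelial markers of the line were not steady. The keratin gene KRT18 was at 248 CPM or more on average in every line, but KRT8 was called down in NF-YAl (286 to 114 CPM, log2FC -1.33, edgeR adjusted p = 2.50e-06). EPCAM, an adhesion molecule, was at 0.982 CPM on average in Empty and was called up in NF-YAl (log2FC 2.16) and in NF-YAs (1.46), and CDH1, which encodes E-cadherin, was called down in NF-YAs (-1.33). The part of these markers in the OAS results was not tested. KLK3, which encodes PSA, was at 0 in every library.

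Every OAS gene was lower in NF-YAl than in Empty MTSs, by 2.25-fold for OASL to 7.28-fold for OAS1. In CPM, no NF-YAl library reached the lowest Empty library for any of them. In NF-YAs MTSs the family split. OAS1 fell 2.93-fold, OAS2 and OAS3 lay below Empty without passing the threshold, and OASL lay above Empty, also without passing it. Between the overexpressing lines, all 4 genes were lower in NF-YAl. Genes were called differentially expressed (DEGs) when the |log2 fold change (log2FC)| was above 1 and the adjusted p of edgeR's quasi-likelihood test was below 0.01.

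OAS1 encodes the smallest synthetase and showed the largest fall. Its level was 126, 153 and 182 CPM in Empty replicates A, B and C, 25.0, 19.6 and 18.9 CPM in NF-YAl replicates A, B and D, and 36.1, 63.5 and 58.0 CPM in NF-YAs replicates A, B and C. The 3 lines did not overlap, with NF-YAs between the others. The difference in log2 CPM was -2.86 ± 0.21 (log2FC ± SE, n = 3 libraries per line, 95% confidence interval -3.32 to -2.41, edgeR adjusted p = 2.50e-06) for NF-YAl over Empty. It was -1.55 ± 0.20 (-1.98 to -1.12, edgeR adjusted p = 9.66e-05) for NF-YAs over Empty. OAS1 was thus down-regulated in both lines, as were 1.57% of the 17108 genes tested, in comparisons that share the Empty libraries.

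OAS2 encodes a synthetase with a pair of OAS units. Its level was 170, 163 and 195 CPM in Empty, 56.2, 52.4 and 39.9 CPM in NF-YAl and 72.8, 143 and 128 CPM in NF-YAs, in the same order of replicates. NF-YAl libraries lay apart from all others, while NF-YAs replicate A was nearer to NF-YAl replicate A than to NF-YAs replicates B and C. The log2FC over Empty was -1.83 ± 0.21 in NF-YAl (-2.30 to -1.37, edgeR adjusted p = 6.17e-05). In NF-YAs it was -0.62 ± 0.21 (-1.07 to -0.17), and its edgeR adjusted p of 0.0353 missed the threshold. With the replicate letter as a block the log2FC was -0.65 and the edgeR adjusted p 0.00798, still short of the limit on |log2FC|.

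OAS3 encodes the synthetase with the longest chain, made of a row of OAS units, and is known for binding long double-stranded RNA. Its level was 618, 594 and 606 CPM in Empty, 148, 181 and 169 CPM in NF-YAl and 272, 469 and 427 CPM in NF-YAs. Relative to the mean, the Empty libraries spread least of any OAS gene, at 606 ± 12.4 CPM (SD, n = 3), and NF-YAs replicate A was again the lowest of its line. The log2FC over Empty was -1.87 ± 0.17 in NF-YAl (-2.24 to -1.50, edgeR adjusted p = 1.06e-05). In NF-YAs it was -0.64 ± 0.17 (-0.999 to -0.28) with an edgeR adjusted p of 0.00987. OAS3 thus narrowly met the p threshold, as 10.5% of the tested genes did in that direction, but not the limit of 1 on |log2FC|. The edgeR adjusted p was 0.0107 with another scaling to library size (RLE). Without single libraries it ranged from 0.00457 to 0.0335, so that the p threshold was not always met.

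OASL, the member without synthetase activity, had another order of lines. Its level was 28.5, 24.7 and 39.9 CPM in Empty, 13.4, 12.7 and 15.2 CPM in NF-YAl and 43.0, 63.2 and 55.8 CPM in NF-YAs. NF-YAs was the highest line and NF-YAl the lowest, although NF-YAs replicate A exceeded Empty replicate C by little. The log2FC over Empty was -1.17 ± 0.19 in NF-YAl (-1.57 to -0.77, edgeR adjusted p = 0.000513). Without Empty replicate C, the highest Empty library, it was -0.95, and OASL no longer passed the limit on |log2FC|. In NF-YAs the log2FC over Empty was 0.80 ± 0.18 (0.41 to 1.19, 1.74-fold, edgeR adjusted p = 0.00426), below the limit on |log2FC| but past the p threshold, which 12.1% of the tested genes passed upwards. Without Empty replicate C it was 1.02 and OASL was called. The p threshold was missed without Empty replicate A (edgeR adjusted p = 0.0233) or B (0.0226). It was also missed without NF-YAs replicate B (0.0249) or C (0.0188).

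**Figure D1:**
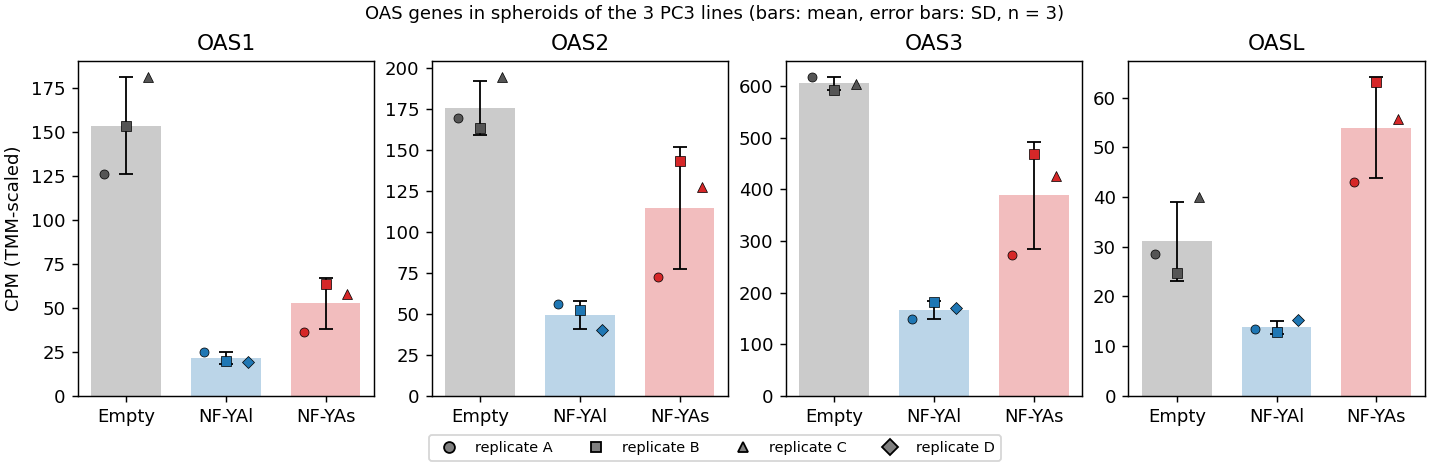
Level of OAS1, OAS2, OAS3 and OASL in CPM (y axis from 0, own scale for each gene) in each library of the 3 lines. Points are libraries and bars mark the mean ± SD (n = 3). For OAS1, OAS2 and OAS3 the order is Empty, NF-YAs, NF-YAl from high to low, and for OASL it is NF-YAs, Empty, NF-YAl.

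All 4 members were thus called down in NF-YAl against Empty, where 3.50% of the tested genes were, and 0 were called up, against 4.76%. In NF-YAs against Empty 1 member was called down and 0 up, where 3.90% of the tested genes were called down and 5.44% up. The members had a median log2FC of -1.85 for NF-YAl and -0.63 for NF-YAs, against 0.01 and -0.00 over all tested genes. In CPM, no member's libraries overlapped with Empty in either line. NF-YAl lay wholly below Empty for 21.4% of the tested genes, and NF-YAs lay wholly below it for 27.1% and wholly above it for 29.2%. OASL was below Empty in NF-YAl and above it in NF-YAs, a pair of signs shared by 13.9% of the tested genes. In these bulk libraries, fewer cells with OAS RNA and less OAS RNA per cell cannot be told apart.

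The overexpressing lines were then compared with each other, which also tests whether their changes over Empty differ. All 4 members were called down in NF-YAl against NF-YAs, where 2.86% of the tested genes were, and 0 were called up, against 1.74%. No library of NF-YAl reached the lowest of NF-YAs, as for 20.9% of the tested genes. The log2FC of NF-YAl over NF-YAs was -1.31 ± 0.20 for OAS1 (edgeR adjusted p = 0.000911), -1.21 ± 0.21 for OAS2 (0.00188) and -1.23 ± 0.17 for OAS3 (0.000430), which lie within each other's confidence intervals. For OASL it was -1.97 ± 0.19 (-2.38 to -1.56, edgeR adjusted p = 4.03e-05), a 3.91-fold lower level. OAS2 was no longer called without NF-YAs replicate B or C, at -1.02 and -1.13, and with the replicate block it was -0.96. With limma on log2(TPM + 1), OASL alone was called, and OAS1, OAS2 and OAS3 were at -1.11, -0.99 and -1.04.

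**Figure D2:**
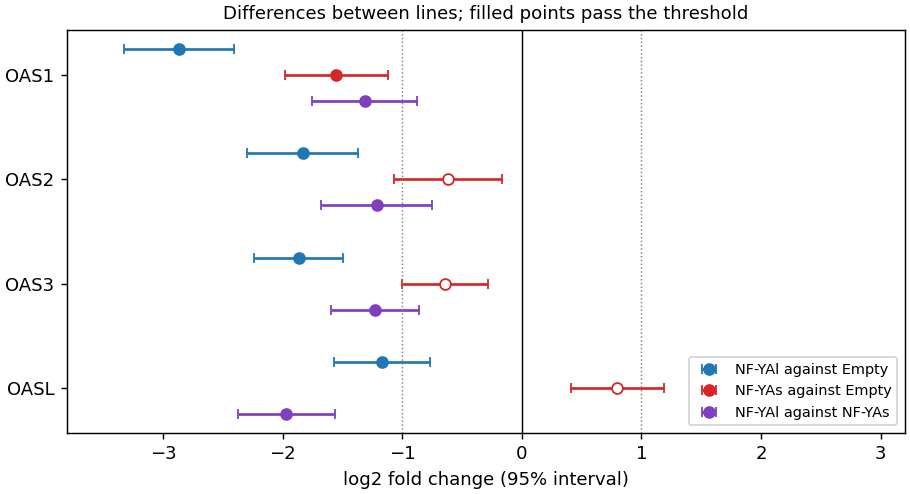
log2FC (x axis) of OAS1, OAS2, OAS3 and OASL in the 3 comparisons, with points at the edgeR estimate and bars for its 95% confidence interval. In NF-YAs against Empty the interval of OASL lies above 0 (0.41 to 1.19) and that of OAS1 below it (-1.98 to -1.12).

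Levels of different genes were compared as TPM, a measure of transcripts scaled by their length. In Empty, the TPM level of OAS1 (108 on average) overlapped with that of OAS3 (105), both were above OAS2 (62.3), and OASL was the lowest (18.5). In NF-YAl the TPM level of OAS3 (36.5) was above OAS2 (22.2), OAS1 (18.9) and OASL (10.6), and neighbours among the last 3 overlapped. In NF-YAs the order was the same, with TPM levels of 74.5 for OAS3, 45.7 for OAS2, 41.7 for OAS1 and 35.8 for OASL. OAS1 thus overlapped with OAS3 in Empty and lay below it in both overexpressing lines, where it overlapped with OAS2.

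The summed level of the family was 294 ± 33.2 TPM for Empty, 88.2 ± 25.7 TPM for NF-YAl and 198 ± 42.1 TPM for NF-YAs (mean ± SD, n = 3). In the same order of lines, OAS1 made up 37.0 ± 3.48%, 21.5 ± 2.83% and 21.1 ± 0.353% of this sum. The share of OASL was 6.24 ± 1.11%, 11.7 ± 1.71% and 18.3 ± 2.07%. The shares of OAS2 (21.1, 25.7 and 22.9%) and OAS3 (35.7, 41.1 and 37.7%) differed by less. Every library of both overexpressing lines had a lower share of OAS1 and a higher share of OASL than any Empty library, which is given as a description with no test. TPM ran high against CPM in NF-YAl replicate D. Within its line it had the lowest OAS1 level in CPM (18.9) but the highest in TPM (23.7). Its summed level was 117 TPM, against 79.7 TPM in A and 67.9 TPM in B. In TPM, unlike in CPM, its OASL level (15.97) exceeded that of Empty replicate B (13.43). The OAS2 level of NF-YAs replicate B (56.85 TPM) likewise exceeded that of Empty replicate B (53.45 TPM).

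The family's genes are spliced into forms with different ends. Of the 4 listed OAS1 transcripts, NM_016816.3 encodes the form that ends in a prenylation signal and is held at membranes, and it took 40.4 ± 2.34% of the gene's TPM in Empty. Its level was 52.0, 64.3 and 82.4 CPM in Empty, 11.3, 7.21 and 7.35 CPM in NF-YAl and 17.1, 18.8 and 25.9 CPM in NF-YAs. It was the only OAS transcript called down in NF-YAs against Empty, with a log2FC of -1.68 (edgeR adjusted p = 0.00626), where 0.949% of the transcripts tested were called down. DESeq2 called 3, and the call was lost when any of 7 single libraries was left out (all but NF-YAl replicates A and D). Its log2FC in NF-YAl over Empty was -2.94 (edgeR adjusted p = 0.00126).

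In NF-YAl against Empty, 6 of the 9 tested OAS transcripts were called down and 0 up, against 0.914% down and 0.845% up among all transcripts tested. The count was 3 without Empty replicate A, NF-YAl replicate A or D, or NF-YAs replicate C, 2 without Empty replicate B or C, and 1 without NF-YAl replicate B. The other called OAS1 forms were NM_002534.3, with a log2FC of -2.97, and NM_001032409.2, with -2.46. Both longer OAS2 forms, NM_002535.2 and NM_016817.2, were called at -1.85 and -1.96, and the only OAS3 transcript, NM_006187.3, at -1.86. The 3 that missed the p threshold were the shortest OAS2 form, NM_001032731.1 (-1.35, edgeR adjusted p = 0.0206), and the OASL forms NM_003733.3 (-1.01, 0.0259) and NM_198213.2 (-1.90, 0.0465). RSEM shares reads among transcripts of a gene by an estimate whose own error is not part of these tests, and 0 OAS transcripts were called in any comparison when the replicate letter was a block. NM_001320151.1 of OAS1 and NM_001261825.1 of OASL, with at most 29.95 counts in any library, were not tested.

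OASL is transcribed mainly as NM_003733.3, the full-length form with the ubiquitin-like repeats. Its level was 22.4, 20.8 and 29.7 CPM in Empty, 12.4, 11.2 and 12.6 CPM in NF-YAl and 33.0, 55.2 and 49.7 CPM in NF-YAs. It was the only OAS transcript called in NF-YAl against NF-YAs, where 0.231% of the transcripts tested were called down, with a log2FC of -1.93 ± 0.22 (edgeR adjusted p = 0.00656). This call was lost when any single library other than NF-YAs replicate A was left out, with log2FC of -1.96 to -1.78. NM_198213.2, which lacks the repeats, was at 1.07 to 2.46 CPM in NF-YAl and 5.31 to 9.90 CPM in NF-YAs, and its level in NF-YAs overlapped with Empty. The share of NM_003733.3 in the gene's TPM was 76.9 ± 5.60% for Empty, 85.9 ± 5.18% for NF-YAl and 82.5 ± 7.02% for NF-YAs, with libraries of all lines overlapping.

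The make-up of OAS2 differed by a few percentage points between lines. The shortest form, NM_001032731.1, took 17.0, 20.1 and 19.0% of the gene's TPM in the Empty libraries, 26.4, 23.5 and 25.6% in those of NF-YAl and 22.4, 21.9 and 22.4% in those of NF-YAs. No libraries of different lines overlapped, and each of the 3 pairs of lines gave p = 0.1 in an exact two-sided permutation test, the smallest that 3 against 3 libraries allow (0.5 after Benjamini-Hochberg adjustment over the transcript shares tested). NM_001032409.2 took 25.9 ± 3.15% of OAS1 in NF-YAl against 19.7 ± 1.08% in Empty, also without overlap (exact p = 0.1).

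**Figure D3:**
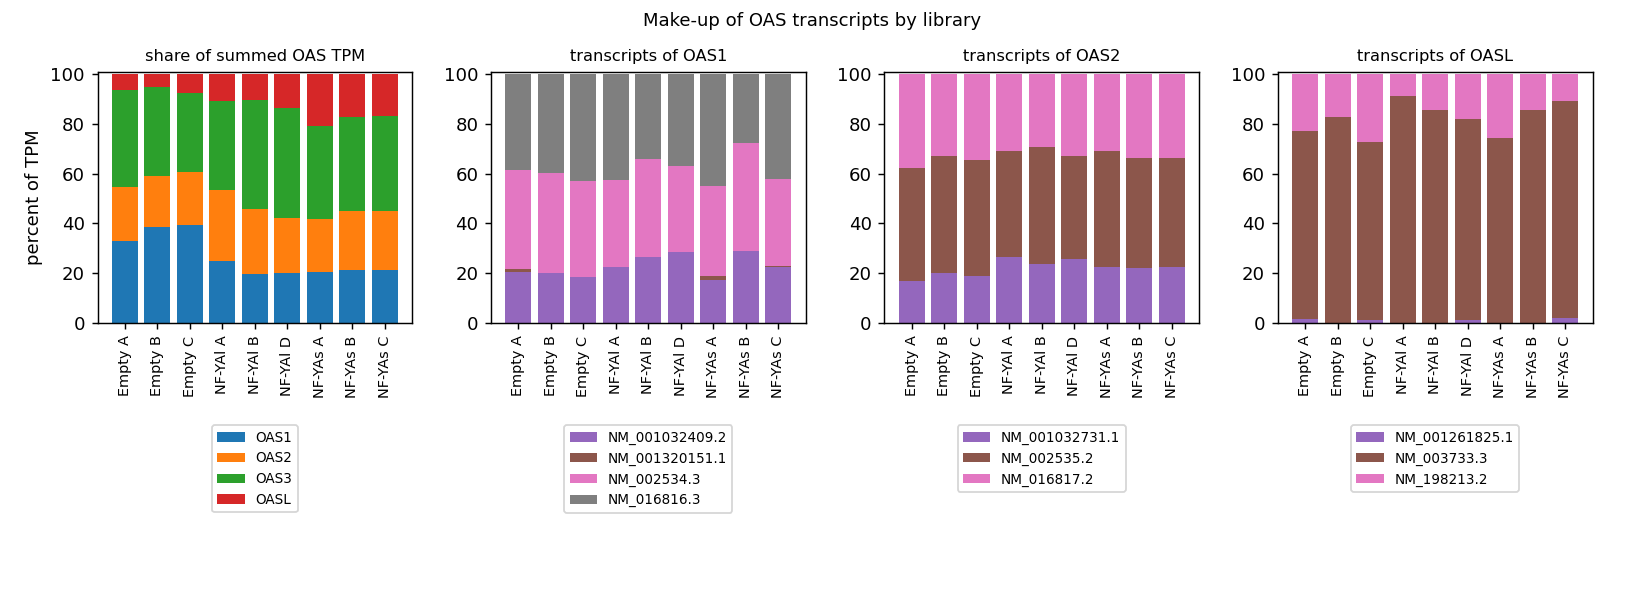
Stacked bars by library, in percent of TPM (y axis). The left panel divides the summed TPM of the family among its 4 genes, and the others divide the TPM of OAS1, OAS2 and OASL among their RefSeq transcripts. The share of OAS1 in the family is higher in the Empty libraries (33.0 to 39.5%) than in the others (19.6 to 24.8%), while the make-up within each gene varies less between lines.

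Of the 2-5A pathway, 5 genes are described here. They were PDE12 and ENPP1, whose enzymes degrade 2-5A, AKAP7 and CNP, which encode phosphodiesterase-fold proteins, and ABCE1, known for its role in ribosome recycling. None of the 5 genes was called in either line over Empty, and their median log2FC was 0.18 in NF-YAl and 0.29 in NF-YAs. CNP had the smallest p in NF-YAl over Empty, at a log2FC of -0.52 (edgeR adjusted p = 0.000676).

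The sensors of foreign nucleic acid were measured next. Of 9 tested sensor genes, 2 were called down in NF-YAl and 0 up, against 3.50% down and 4.76% up among all tested genes. DDX58, which encodes RIG-I, fell to 30.6 CPM from 99.0 CPM on average (log2FC -1.70), and IFIH1, which encodes the related sensor MDA5, fell from 48.4 to 17.4 CPM (log2FC -1.48). In NF-YAs 0 were called down, with log2FC of -0.47 and -0.52 for these genes. There 1 was called up, TLR3, at 1.99 CPM or less on average in every line. DDX58 met the p threshold alone in NF-YAs (edgeR adjusted p = 0.00707). So did EIF2AK2 (-0.51, 0.00251) and ADAR (-0.69, 0.000506) of the same list. Both also met it alone in NF-YAl, EIF2AK2 at -0.76 (0.000207) and ADAR at -0.60 (0.00142). Among all tested genes, 3.90% were called down and 5.44% up in NF-YAs.

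Most interferon genes had few counts, and of 8 ligand genes 2 passed the filter, IFNA1 and IFNE. IFNE, which encodes an interferon made by epithelia, was at 10.3 ± 0.729 CPM in Empty, 11.6 ± 0.745 CPM in NF-YAl and 6.82 ± 0.637 CPM in NF-YAs. Its log2FC over Empty was 0.17 in NF-YAl and -0.60 in NF-YAs (edgeR adjusted p = 0.00481), the latter below the limit on |log2FC|. IFNA1 was at 0.709 CPM or less on average in every line, and neither gene was called over Empty. IFNB1, which encodes interferon beta, had 7, 8 and 7 counts in Empty, 1, 3 and 1 counts in NF-YAl and 0, 0 and 1 counts in NF-YAs, too few for a test. Of the 9 genes for interferon receptors and their kinases, 0 were called in either line over Empty, with median log2FC of 0.02 and -0.18. JAK2 met the p threshold alone in NF-YAl (-0.71, edgeR adjusted p = 0.00283) and NF-YAs (-0.80, 0.00110), as did IFNGR2 in NF-YAs (-0.61, 0.00135). IFNGR1 lay above Empty in both lines (0.67 and 0.64) without meeting it.

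Of 7 transcription factor genes of the pathway, 2 were called down in NF-YAl and 1 up, against 3.50% down and 4.76% up among all tested genes. IRF9, the DNA-binding part of the complex that type I interferon activates, fell from 61.8 to 29.8 CPM on average (log2FC -1.05), and IRF7, an amplifier of interferon production, from 102 to 36.9 CPM (-1.46). STAT2 was at 262 and 185 CPM (-0.50) and was not called. IRF5 rose in both lines, to 8.63 CPM in NF-YAl (1.53) and 6.87 CPM in NF-YAs (1.20), and no other gene of the group was called in NF-YAs. IRF9 (-0.64), IRF7 (-0.61) and IRF1 (-0.53) lay below Empty in NF-YAs. They met the p threshold (edgeR adjusted p = 0.00497, 0.00681 and 0.00833) but not the limit on |log2FC|.

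Of 41 other interferon-stimulated genes (ISGs), 40 were tested. In NF-YAl over Empty 31 were called down and 0 up, where 3.50% of all tested genes were called down and 4.76% up. Over all tested genes the median log2FC was 0.01, and that of the list was -1.46. The largest falls were those of MX2 (-3.11), IFI27 (-2.89), MX1 (-2.66) and BST2 (-2.63), of which MX1, MX2 and BST2 encode proteins that restrict viruses. In NF-YAs over Empty, 3.90% of all tested genes were called down and 5.44% up, with a median of -0.00. Of the ISGs 4 were called down and 0 up, namely MX2 (-1.76), IFI44L (-1.18), DDX60L (-1.01) and SAMD9 (-1.01), and the median was -0.58. Without NF-YAs replicate A, the library with the lowest level of each OAS gene in that line, 1 was called down, and without Empty replicate C it was 2. Between the lines 2.86% of all tested genes were called down in NF-YAl and 1.74% up. Of the ISGs 21 were called down in NF-YAl and 0 up. The count of 21 fell to 12 or 13 without NF-YAl replicate B, NF-YAs replicate B or NF-YAs replicate C.

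The log2FC of OAS1 in NF-YAl lay between those of IFI27 and MX1, those of OAS2 and OAS3 were below the ISG median, and that of OASL was above it. HERC5, whose product attaches ISG15 to proteins, had the same pair of signs as OASL, at -0.70 in NF-YAl and 0.46 in NF-YAs, neither of which was called. That pair of signs was found in 7 of the 40 ISGs tested, or 17.5%, against the 13.9% of all tested genes given above.

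Of 8 markers of cells that the cultures should not hold, 3 were tested. The summed level of the 8 was 60.1 to 79.6 CPM in Empty, 27.0 to 42.8 CPM in NF-YAl and 30.5 to 38.4 CPM in NF-YAs. Most of it came from CD68, and PECAM1 added 6.27, 5.57 and 1.88 CPM on average in the same order of lines. The defining leukocyte, dendritic and endothelial markers PTPRC, CD3E, CLEC4C, LILRA4 and CDH5 were at 0.307 CPM or less on average in every line. Of the 8, CD68 was called down in NF-YAl (60.8 to 28.9 CPM) and PECAM1 in NF-YAs (6.27 to 1.88 CPM). The part of the CD68 signal in the OAS results was not tested.

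**Figure D4:**
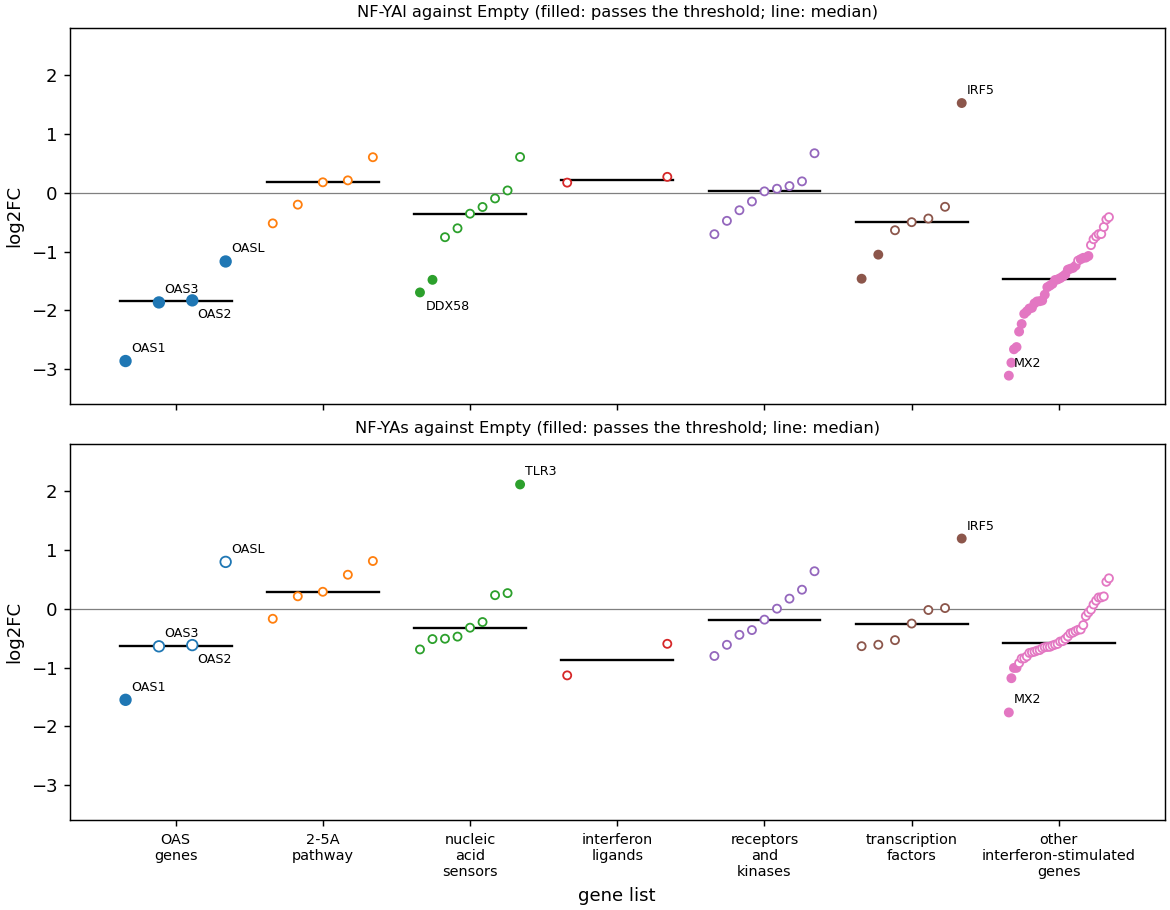
log2FC over Empty (y axis) of the OAS genes and of each tested gene of 6 lists, in NF-YAl (top) and NF-YAs (bottom), sorted within each list. Filled points are DEGs and lines are medians, and both panels use the same Empty libraries. The ISG median is -1.46 in NF-YAl and -0.58 in NF-YAs, and the medians of receptors and kinases are 0.02 and -0.18.

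The genes most like each OAS gene across the 9 libraries were taken from 12124 genes with at least 5 CPM, by Pearson's r of log2 CPM, as a description. The libraries share 3 lines, so that r mostly reflects the levels of the lines. Among the genes most like OAS1 were UBE2L6 (r = 0.989), MX2, IFI44L and ACOT9. OAS2 was most like NR1D1 (0.994), IFI35, PML, HELZ2 and FICD, and OAS3 was most like SAMHD1 (0.994), ISG15, MX1, IRF7 and CKMT2-AS1. OASL was most like HERC5 (0.988), COL6A3, UPP1, IL31RA and CLEC2B. Among the family, OAS1, OAS2 and OAS3 had r of 0.954 to 0.975 with each other, and OASL had r of 0.539 to 0.693 with them.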

How the data were processed

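Total RNA libraries from MTSs of 3 PC3 lines were grouped by the sample labels. The authors counted reads on GRCh37 transcripts with bowtie2 within RSEM 1.3.1. They deposited, for genes and transcripts, the expected count (RSEM's estimate of reads, not normalized) and TPM (scaled by effective length and library), and for transcripts the percent of the gene's TPM. The members and gene lists were chosen with earlier results of these data known.

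Expected counts were rounded and fitted across all genes and 9 libraries with edgeR 4.0.16 in R 4.3.3 (filterByExpr, TMM, quasi-likelihood F test, Benjamini-Hochberg), which kept 17108 of 27111 genes and 34671 of 58352 transcripts. SEs are |log2FC| over the square root of F. A DEG had adjusted p under 0.01 and |log2FC| above 1, as in the study's methods. Genes named were the members, their transcripts and NFYA, list genes called over Empty with at least 5 CPM (at most 4 per list and direction), defining list genes, 5 genes most like each member and the 3 nearest tested genes on each side. CNP, PDE12, ENPP1, AKAP7, ABCE1, HERC5, TLR3, EIF2AK2, ADAR and the markers were named beside these, after their values were seen. A few genes of the lists are left out of the results given here.

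Alternatives were DESeq2 1.42.0, limma 3.58.1 on log2(TPM + 1), RLE scaling, no filter or at least 10 counts in every library, 2 groups alone, the replicate letter as a block, a length offset, adjusted p under 0.05, no fold limit, and leaving out each library. On data simulated for NF-YAl against Empty over 17108 genes, edgeR recovered 200 of 200 genes changed 4-fold, with 0 false calls. Replicate libraries differed by more than counting error (chi-square per gene 6.39 to 92.7). Figures used matplotlib 3.10.9 and pandas 2.3.3 in Python 3.11.15.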

Additional observations from a re-analysis of the deposited data

Results flagged for a closer look

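The change over Empty differed between NF-YAl and NF-YAs for all 4 OAS genes, tested with edgeR as the direct contrast of the lines. With limma on log2(TPM + 1) it passed the threshold for OASL alone. The difference in log2FC (NF-YAl minus NF-YAs) was -1.31 for OAS1, -1.21 for OAS2, -1.23 for OAS3 and -1.97 for OASL. The full-length OASL transcript NM_003733.3 differed by -1.93.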

How the results depend on the processing

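OAS1, OAS2 and OAS3 in NF-YAl over Empty and OAS1 in NF-YAs over Empty were called in the same direction under each of the 19 alternatives. With limma on log2(TPM + 1), OASL in NF-YAl over Empty was -0.79 (adjusted p = 0.0754), and OAS1, OAS2 and OAS3 in NF-YAl over NF-YAs were -1.11, -0.99 and -1.04 and were not called, which left 1 member down in that contrast and 19, 1 and 5 ISGs down in the 3 comparisons. Leaving out single libraries gave OASL -1.31 to -0.95 in NF-YAl over Empty and 0.66 to 1.02 in NF-YAs over Empty, the lower values without Empty replicate B and the higher without Empty replicate C, and OAS2 -1.46 to -1.02 in the direct contrast. With no fold limit in NF-YAs over Empty, OAS3 (-0.64) and OASL (0.80) were called, making 2 members down and 1 up, with 14 ISGs down. With limma on log2(TPM + 1) in that comparison, neither OAS3 nor OASL met the p threshold (limma adjusted p = 0.304 and 0.0344). Leaving out single libraries gave 3 to 4 members down in NF-YAl over Empty, 0 to 1 up in NF-YAs over Empty and 3 to 4 down in the direct contrast. For the ISGs, which were run after the data were seen, as were the transcript shares without single libraries, it gave 28 to 32, 1 to 4 and 12 to 25 down. OAS transcripts called down ranged over 1 to 6, 0 to 1 and 0 to 2 in the 3 comparisons, and DESeq2 called 8, 3 and 9. NM_198213.2 in NF-YAs over Empty, 0.27 and not called, ranged from -0.01 without Empty replicate B to 0.69 without Empty replicate C.

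The labels do not say what the letters share. The study describes independent experiments but does not say which libraries belong to each. Residuals of same-lettered libraries correlated at -0.0652 to 0.253 (0.123 and 0.253 between Empty and NF-YAl) and those of unlike letters at -0.22 to 0.163. Same-lettered pairs held most of the highest values, among them 0.253, 0.130, 0.123, 0.0984 and 0.0771. The main fit did not take the letters as pairs, and some results depend on that. With the letter as a replicate block, OAS2 in NF-YAl over NF-YAs was -0.96, and 0, 0 and 0 OAS transcripts were called. In NF-YAs over Empty, OAS2 (-0.65) and OAS3 (-0.67) then met the p threshold (edgeR adjusted p = 0.00798 and 0.00189) but not the limit on |log2FC|. Depth limits the minor transcripts of OAS1 and OASL.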

Other observations

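The tested neighbours of the OAS1-OAS3-OAS2 cluster did not share its fall. In NF-YAl over Empty, log2FC was 0.01 for PTPN11, -0.21 for RPL6 and -0.09 for HECTD4 on the lower side, and 0.01 for DDX54 and -0.30 for RITA1 on the higher side, and none was called. The nearest, DTX1, 45.0 kb beyond OAS2, was at 0.0131 CPM on average in Empty, 0.0450 CPM in NF-YAl and 4.49 CPM in NF-YAs. Beside OASL, log2FC over Empty was 0.91 in NF-YAl and 0.81 in NF-YAs for CAMKK2, 198.4 kb away.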
